A study of Rattus norvegicus with 151 samples.

Results

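Crude MCHM is the technical mixture, mostly 4-methylcyclohexanemethanol, that was spilled into a drinking water supply in West Virginia. The liver response to 300 mg/kg of it is described here from 8 of the 151 expression arrays of the series. They are the 4 liver arrays of rats dosed at 300 mg/kg and the 4 liver arrays of their own vehicle group, chosen by their labels alone. All rats were male Harlan Sprague-Dawley animals of 6 to 8 weeks, and each was gavaged once a day for 5 days, with crude MCHM in corn oil or with corn oil only. The labels number the rats, and in the order of those numbers the treated rats are called T1 to T4 and the vehicle rats V1 to V4 here. Values are listed in that order.

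The same vehicle group served crude MCHM at 0.1 mg/kg (3 livers) and at 1, 10, 100 and 500 mg/kg (4 livers each). The series further holds arrays of MCHM, the main component, and of PPH, a glycol ether that was also spilled. Both chemicals have 5 vehicle livers of their own, and kidneys were measured too. Values are log2 units of the deposited expression table. The median of the 8 arrays lay between 5.29 and 5.35, and every pair of them correlated at 0.990 or above. The number of arrays limits the precision.

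Hepatocytes make most of the proteins of blood plasma and store or export the fat they synthesize. Aminoacyl-tRNA synthetases load amino acids onto transfer RNAs, and their cytosolic forms, together with asparagine synthetase and amino acid transporters, are known targets of the ATF4 pathway, which acts when amino acids are short or the endoplasmic reticulum is stressed. New ribosomes are assembled in the nucleolus, where RNA polymerase I makes ribosomal RNA that small nucleolar RNA complexes modify. SREBP-1c, the product of Srebf1, turns on fatty acid synthesis in fed liver. As for the tissue label, albumin averaged 14.83 log2 units in 300 mg/kg livers and in vehicle livers, and all 11 hepatocyte markers lay above the detection threshold of 4.69. Of markers of cells foreign to liver, none of 7 for skeletal muscle did, but 4 of 10 for pancreatic acinar cells (Cela1 up to 10.19), 6 of 8 for kidney tubules (Lrp2 up to 6.92) and 7 of 9 for fat cells did in at least 1 of the 8 arrays. Their source was not tested.

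Among the genes that rose in liver at 300 mg/kg were tRNA synthetases, factors of ribosome assembly and enzymes of fatty acid synthesis, mostly by less than 2-fold. Of 11402 genes tested, 100 rose (0.877%) and 15 fell (0.132%) at an adjusted p under 0.05 in limma, which together is 1.01%. Among these, 20 risen and 3 fallen genes moved by at least 1.5-fold. The 300 mg/kg and vehicle arrays did not overlap for 97 of the 100 risen and 14 of the 15 fallen genes, where 9.01% of all genes tested showed no overlap in either direction. These genes were called on the difference between the same arrays, so their lack of overlap is largely set by the call and adds no support. Over all genes the median log2 difference was 0.02, and 54.5% of them were above 0.

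The number of genes called changed with single rats of both groups and with the arrays in the fit. Without vehicle rat V2 it was 3, without treated rat T1 17, without treated rat T4 39, and without any other single rat between 59 and 83. In a fit of the 8 arrays alone it was 3. Against all 14 vehicle livers of the 3 sets 79 genes rose and 88 fell, and 33 of the 115 genes were among them. Otub2, Slc3a2 and Nim1k passed in all 8 fits with 1 rat left out, and no gene changed sign in any of them, with 1 gene that has a placeholder symbol tested in 5 of the 8. The mean level of the 100 risen genes was 8.61 to 8.72 log2 units in 300 mg/kg livers, against 8.07 to 8.21 in their vehicle livers and 8.23 to 8.52 in the 10 vehicle livers of the other sets. It was 8.43 to 8.45 at 0.1 mg/kg. The actin difference between 5′ and 3′ control probe sets, a sign of RNA quality, was -2.10 to -1.76 in MCHM vehicle livers, -1.27 to -1.11 in PPH vehicle livers and -1.29 to -1.19 in crude MCHM vehicle livers, and the risen genes averaged 8.24 to 8.52 in the MCHM and 8.23 to 8.49 in the PPH vehicle livers. The vehicle livers of the crude MCHM set thus stood lowest in these genes, and 9 of the 100 had their lowest 300 mg/kg array above every vehicle liver of the other sets. Since the genes were called against the first of these vehicle groups, its low place is partly set by the choice, and its part in the result was not tested.

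**Figure D1:**
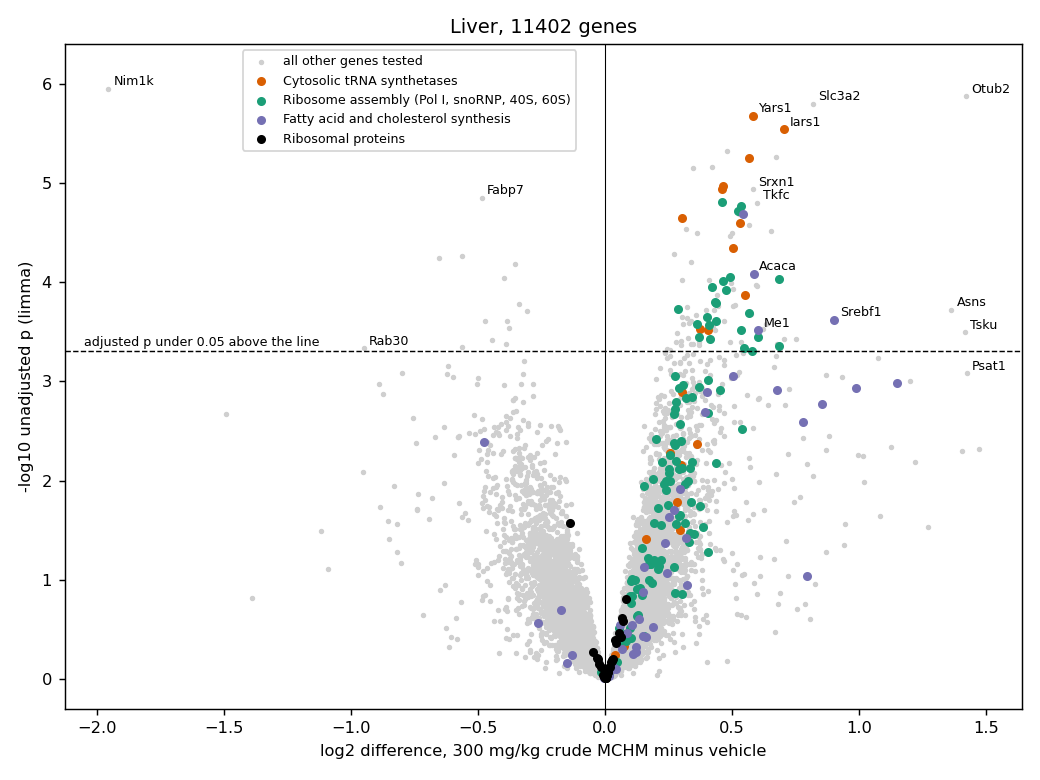
Each point is 1 of 11402 genes tested in liver, placed by its log2 difference between 300 mg/kg crude MCHM and vehicle (horizontal axis) and by -log10 of its unadjusted p from limma (vertical axis), with 4 gene families coloured. The cytosolic tRNA synthetases and the ribosome assembly genes lie almost wholly right of 0, the ribosomal proteins lie close to 0, and Nim1k stands apart on the left at -1.96.

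The largest rise belonged to Otub2, a deubiquitinating enzyme of the OTU family. Its log2 level was 8.03, 8.04, 8.07 and 8.12 in 300 mg/kg livers, against 6.68, 6.56, 6.49 and 6.85 in vehicle livers. The treated rats were close together and lay far above every vehicle rat, a difference of 1.42 ± 0.22 (SE; adjusted p = 0.00602). Tsku, which encodes the secreted protein tsukushi, made by hepatocytes, read 9.32, 9.78, 9.51 and 9.59 in 300 mg/kg livers, against 8.05, 8.15, 7.44 and 8.89 in vehicle livers. It rose by the same 1.42 (adjusted p = 0.042), but vehicle rat V4 came near the lowest treated rat. Tsku differed from vehicle by 1.16 at 0.1 mg/kg and by 1.05 at 10 mg/kg too, neither of them called.

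Several risen genes handle amino acids; they were picked from the called genes. Asns, which makes asparagine, read 9.04, 8.75, 8.74 and 8.44 in 300 mg/kg livers, against 6.75, 7.21, 7.97 and 7.59 in vehicle livers. No treated rat overlapped a vehicle rat, and the rise of 1.36 ± 0.31 (adjusted p = 0.036) came with a wide spread among the vehicle rats. Slc3a2, the heavy chain shared by several amino acid exchangers, had 10.42, 10.45, 10.30 and 10.05 in 300 mg/kg livers, against 9.45, 9.39, 9.53 and 9.57 in vehicle livers. It rose by 0.82 ± 0.13 (adjusted p = 0.00602), with both groups tight and apart. Slc6a9, a glycine transporter, rose by 0.67 ± 0.12 (adjusted p = 0.00803). Asnsd1, named for its asparagine synthetase domain, rose by 0.31 and Scly, which breaks down selenocysteine, by 0.32.

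Both enzymes that start serine synthesis from a glycolytic intermediate missed the threshold, though their differences were larger than that of Slc3a2. Psat1 ran between 8.47 and 9.37 in 300 mg/kg livers, against 6.84 to 8.05 in vehicle livers (1.42 ± 0.37, adjusted p = 0.064). Phgdh ran between 9.27 and 9.80 in 300 mg/kg livers, against 7.69 to 8.88 in vehicle livers (1.08 ± 0.27, adjusted p = 0.053). In both genes the groups did not overlap, and vehicle rat V1 was lowest. Of 20 amino acid transporters tested 2 rose and 15 were above 0, with a median of 0.10. Asns was the 1 riser among 32 genes of endoplasmic reticulum stress and the amino acid response, whose median was -0.02 with 14 above 0.

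Of 22 cytosolic aminoacyl-tRNA synthetases and scaffold proteins tested, 11 rose and 11 did not pass, all 22 were above 0, and the median was 0.33 beside 0.02 for all genes. The groups did not overlap, with treated higher, in 14 of the 22, against 6.72% of all genes. This list and the translation, ribosome, transporter and tubulin lists below were assembled after the values had been seen. Iars1, which loads isoleucine, read 9.22, 9.01, 9.18 and 9.16 in 300 mg/kg livers, against 8.36, 8.10, 8.70 and 8.59 in vehicle livers, a rise of 0.71 ± 0.12 (adjusted p = 0.00659). Yars1, which loads tyrosine, read 9.79, 9.58, 9.75 and 9.68 in 300 mg/kg livers, against 9.10, 8.87, 9.25 and 9.26 in vehicle livers, a rise of 0.58 ± 0.09 (adjusted p = 0.00602). In both, vehicle rat V2 was lowest and the treated rats lay close together.

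The other synthetases that rose were those for asparagine (Nars1, 0.57), cysteine (Cars1, 0.55), glycine (Gars1, 0.53), methionine (Mars1, 0.46), glutamate and proline (Eprs1, 0.46), leucine (Lars1, 0.41), serine (Sars1, 0.37) and alanine (Aars1, 0.30). Aimp1, a scaffold protein of the multi-synthetase complex, rose by 0.50. Xpot, which exports transfer RNA from the nucleus, rose by 0.57, and Pus1, which modifies it, by 0.43. The mitochondrial synthetases gave a different count: none of 13 was called, 11 were above 0, and their median was 0.10. Without vehicle rat V2 none of the 22 cytosolic members was called and without treated rat T1 3 were, while the median stayed between 0.28 and 0.39 over the 8 fits with 1 rat left out.

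Promoters are shown for 5 risen genes because short sequence motifs were unevenly spread between these families. The windows are the 170 bases before the annotated start in RefSeq (build GRCr8), written 5′ to 3′ on the gene's strand, with matches in capitals. The motifs were TGATGNAA, the core of the amino acid response element, and CACGTG, an E-box that MYC and related factors bind, each searched on both strands. Iars1 holds both, Mars1 and Eif2s2 hold TGATGNAA, and Utp4 and Tma16 hold CACGTG.
Iars1, chr17:15193653-15193822, minus strand: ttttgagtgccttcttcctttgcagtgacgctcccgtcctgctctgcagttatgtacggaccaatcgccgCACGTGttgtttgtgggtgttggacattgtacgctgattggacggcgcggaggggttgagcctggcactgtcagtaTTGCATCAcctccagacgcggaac
Mars1, chr7:65023754-65023923, minus strand: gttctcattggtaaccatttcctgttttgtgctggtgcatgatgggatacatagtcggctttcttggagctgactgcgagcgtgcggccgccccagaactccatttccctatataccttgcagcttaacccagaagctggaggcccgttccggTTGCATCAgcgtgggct
Eif2s2, chr3:163855571-163855740, minus strand: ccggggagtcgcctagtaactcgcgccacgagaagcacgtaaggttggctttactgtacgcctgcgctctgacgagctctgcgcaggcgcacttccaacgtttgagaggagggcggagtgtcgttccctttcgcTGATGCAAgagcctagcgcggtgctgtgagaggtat
Utp4, chr19:51702071-51702240, plus strand: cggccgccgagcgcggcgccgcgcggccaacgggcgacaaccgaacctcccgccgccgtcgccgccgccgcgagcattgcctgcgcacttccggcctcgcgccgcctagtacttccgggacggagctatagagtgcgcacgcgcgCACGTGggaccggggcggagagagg
Tma16, chr16:28003235-28003404, plus strand: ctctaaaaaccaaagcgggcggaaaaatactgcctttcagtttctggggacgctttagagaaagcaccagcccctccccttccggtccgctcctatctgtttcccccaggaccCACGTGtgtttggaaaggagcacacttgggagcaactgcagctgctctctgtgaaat
In Iars1 and Mars1 the amino acid response motif lies on the opposite strand and begins 24 and 17 bases before the start. In Eif2s2, a subunit of the initiation factor eIF2, it lies on the gene's strand and begins 36 bases before it. In Utp4 and Tma16, which act in assembly of the small and the large ribosomal subunit, the E-box begins 25 and 57 bases before the start.

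The full windows of the table run from 250 bases before to 50 bases after the start. TGATGNAA stood in 7 of 20 windows of cytosolic synthetases (35%), in 10 of 84 of the risen genes (11.9%), in 196 of 9520 of the genes tested (2.06%) and in 1048 of all 27457 windows (3.82%). It stood in 0 of 13 windows of mitochondrial synthetases, in 0 of 38 of small subunit and in 1 of 36 of large subunit assembly genes. The risen genes with TGATGNAA were the synthetase genes Aars1, Cars1, Iars1, Mars1, Nars1 and Yars1, already counted above, and Eif2s2, Gar1, Gtpbp4 and Polr1f. CACGTG stood in 16 of 38 windows of small subunit assembly genes (42.1%) and in 13 of 36 of large subunit assembly genes (36.1%), against 900 of 9520 of the genes tested (9.45%), 1826 of all 27457 (6.65%) and 2 of 25 of ribosomal protein genes. It also stood in 5 of 20 windows of cytosolic synthetases, in 16 of 84 of the risen genes and in 1 of 13 of mitochondrial synthetases. CACGTG was thus not confined to the assembly genes. A sterol response motif, TCACNCCAC, stood in 0 of 18 windows of fatty acid synthesis genes and in 103 of 9520 of the genes tested (1.08%). The motifs were picked after the values had been seen, the windows of 1 family are few, and a match in letters is a description.

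A list of 17 genes held the subunits of the initiation factor eIF2 and its exchange factor eIF2B, the kinases and phosphatase subunits that act on eIF2, eIF4E-binding proteins and Xpot. Of these 5 rose and 15 were above 0, with a median of 0.15. The 5 were Eif2b3 (0.49) and Eif2b1 (0.44) of 5 eIF2B subunits, Eif2s2 (0.35) of 3 eIF2 subunits, Eif4ebp1 (0.50), a brake on cap-dependent translation that acts on eIF4E, and the tRNA exporter Xpot. Eif2s2 read 10.59, 10.51, 10.50 and 10.44 in 300 mg/kg livers, against 10.09, 10.13, 10.22 and 10.21 in vehicle livers (adjusted p = 0.00814). All 4 treated rats lay above all 4 vehicle rats, with little spread in either group. Of 11 eIF3 subunits 2 rose, Eif3c (0.33) and Eif3j (0.25), and 10 were above 0.

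Of 42 factors of large subunit assembly 11 rose and all 42 were above 0, with a median of 0.29. Of 43 factors of the small subunit 7 rose and 42 were above 0, also with a median of 0.29. Gtpbp4, a nucleolar GTPase of the large subunit, read 7.35, 6.96, 7.35 and 7.37 in 300 mg/kg livers, against 6.69, 6.58, 6.77 and 6.66 in vehicle livers, a rise of 0.58 ± 0.14 (adjusted p = 0.049). Treated rat T2 stood below the other 3 but above every vehicle rat. Others of the large subunit were Gnl2 (0.55), Nifk (0.48), Tma16 (0.47), Brix1 (0.43), Ebna1bp2 (0.42), Wdr74 (0.41) and Mrto4 (0.36). Those of the small subunit included Nol8 (0.53), Utp25 (0.53), Wdr3 (0.49), Krr1 (0.44), Utp15 (0.43) and the kinase Riok1 (0.42).

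Of 14 genes of RNA polymerase I and its factors 2 rose, the subunits Polr1e (0.60) and Polr1f (0.52), and all 14 were above 0. Of 13 proteins of small nucleolar RNA complexes and their partners 3 rose, Gar1 (0.68), Nop58 (0.68) and Nolc1 (0.57), and all 13 were above 0. Gar1, of the complexes that guide pseudouridine formation, read 7.89, 7.48, 7.81 and 7.78 in 300 mg/kg livers, against 6.91, 7.01, 6.96 and 7.34 in vehicle livers (adjusted p = 0.027). Vehicle rat V4 came near treated rat T2, but the groups did not overlap.

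Of 28 ribosomal proteins tested none was called, 20 were above 0, their median was 0.01, and they ran from -0.14 to 0.08. Of 71 mitochondrial ribosome genes 2 rose, Mrpl47 (0.54) and Mrps18b (0.41), with a median of 0.08 and 64 above 0. Without vehicle rat V2, and likewise without treated rat T1, no assembly factor of either subunit was called, although the medians over the 8 fits with 1 rat left out stayed between 0.23 and 0.33 for the large and between 0.25 and 0.31 for the small subunit. Against all 14 vehicle livers no assembly factor was called either, and both medians were 0.14.

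**Figure D2:**
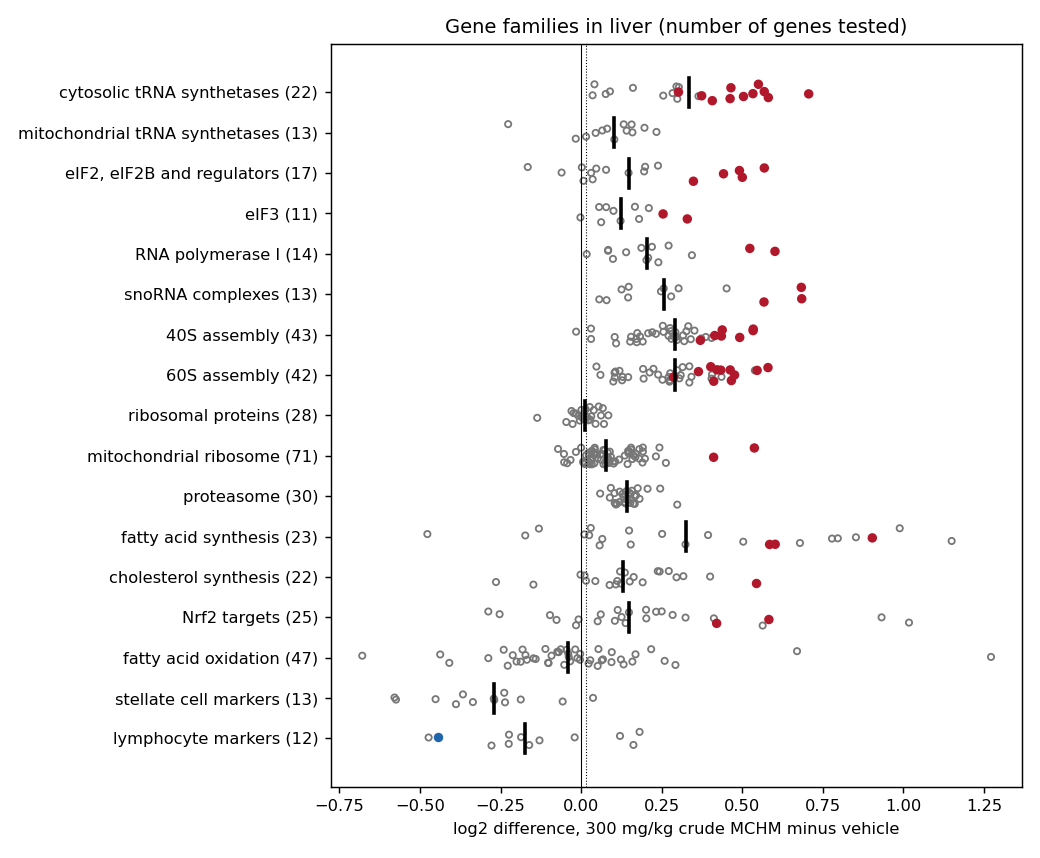
Each circle is 1 gene, placed by its log2 difference between 300 mg/kg crude MCHM and vehicle in liver, in rows of gene families with the number tested; filled red circles rose and filled blue circles fell at an adjusted p under 0.05, black bars are family medians, and the dotted line is the median of all genes. The medians of the cytosolic tRNA synthetases (0.33) and of both subunit assembly lists (0.29) lie apart from those of the ribosomal proteins (0.01) and of the mitochondrial synthetases (0.10).

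Of 23 genes of fatty acid synthesis tested 3 rose, 20 were above 0, and the median was 0.32. Srebf1 read 11.17, 10.90, 11.15 and 11.14 in 300 mg/kg livers, against 10.41, 10.09, 9.63 and 10.62 in vehicle livers, a rise of 0.90 ± 0.21 (adjusted p = 0.039). Acaca, acetyl-CoA carboxylase, which makes the building block of fatty acids, read 9.83, 9.59, 9.44 and 9.88 in 300 mg/kg livers, against 9.06, 9.12, 9.17 and 9.05 in vehicle livers, a rise of 0.58 ± 0.12 (adjusted p = 0.027). Me1, malic enzyme, which supplies the reducing power, read 10.03, 9.77, 9.50 and 10.04 in 300 mg/kg livers, against 9.18, 9.23, 9.24 and 9.28 in vehicle livers, a rise of 0.60 ± 0.14 (adjusted p = 0.040). In all 3 the groups did not overlap. For Acaca and Me1 the vehicle rats were tight and treated rat T3 was the lowest of its group. Without rat T1, T4 or V2 none of the 23 genes was called, with medians between 0.23 and 0.37.

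Related enzymes outside that list rose too. Tkfc, which phosphorylates a product of fructose breakdown, rose by 0.60 ± 0.11 (adjusted p = 0.011). Gpd1, which makes the glycerol backbone of triglycerides, rose by 0.33 (adjusted p = 0.045). Stbd1, which binds glycogen, rose by 0.71 ± 0.17 (adjusted p = 0.045). Of 22 genes of cholesterol synthesis and uptake 1 rose, Tm7sf2, a sterol reductase, with 10.96, 11.20, 11.06 and 11.03 in 300 mg/kg livers, against 10.75, 10.53, 10.48 and 10.32 in vehicle livers (0.54 ± 0.10, adjusted p = 0.012). The groups lay apart, and 19 of the 22 genes were above 0 with a median of 0.13. Tmem97, a sterol-responsive membrane protein also known as the sigma-2 receptor, rose by 0.40 (adjusted p = 0.036).

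Of 25 genes listed for NRF2, a transcription factor of the response to oxidative and electrophilic stress, 2 rose and 19 were above 0. Their median was 0.15, and the list includes Nfe2l2, which encodes NRF2, and Keap1. Srxn1, which repairs oxidized peroxiredoxins, read 8.66, 8.27, 8.46 and 8.34 in 300 mg/kg livers, against 7.91, 7.79, 7.97 and 7.73 in vehicle livers, a rise of 0.58 ± 0.11 (adjusted p = 0.010). Sqstm1, the autophagy adaptor p62, read 11.92, 11.74, 11.79 and 11.87 in 300 mg/kg livers, against 11.44, 11.38, 11.50 and 11.32 in vehicle livers, a rise of 0.42 ± 0.07 (adjusted p = 0.00814). Both were apart from vehicle in every rat. Txnrd1, thioredoxin reductase, differed by 0.32 and narrowly missed (adjusted p = 0.051). All 30 proteasome genes were above 0 with a median of 0.14, and none was called.

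Of 21 genes listed for the receptors CAR and PXR, which include both receptor genes, Tsku alone rose, and it is not a drug-metabolizing enzyme. Cyp3a9, a cytochrome P450, read 8.98, 8.04, 8.52 and 8.59 in 300 mg/kg livers, against 8.48, 7.63, 7.21 and 7.95 in vehicle livers (0.71 ± 0.33, adjusted p = 0.328), with overlapping groups. None of 6 genes listed for the aryl hydrocarbon receptor, 47 genes of fatty acid oxidation, 20 glutathione transferases or 19 bile acid genes was called. The same held for 34 respiratory chain genes, 24 acute phase genes, 27 mitosis genes and 27 interferon genes. Cyp7a1, the rate-limiting enzyme of bile acid synthesis, read 11.43, 11.22, 9.48 and 11.78 in 300 mg/kg livers, against 10.55, 8.72, 9.94 and 8.81 in vehicle livers (1.47 ± 0.47, adjusted p = 0.133), and the groups overlapped widely. Of 9 tubulins 2 rose, Tubb4b (0.53) and Tubb2a (0.51).

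Among falling genes Nim1k, a protein kinase of the family of AMP-activated kinase, stood far out. It read 4.68, 5.79, 6.02 and 5.12 in 300 mg/kg livers, against 7.17, 7.64, 7.64 and 6.98 in vehicle livers, and the groups did not overlap. It fell by 1.96 on the log2 scale (SE 0.30, adjusted p = 0.00602). Treated rat T1 lay at the detection threshold. Rab30, a small GTPase of the Golgi, read 7.29, 7.69, 7.22 and 7.25 in 300 mg/kg livers, against 7.97, 8.39, 9.07 and 7.80 in vehicle livers, and fell by 0.95 (adjusted p = 0.047). Vehicle rat V3 was highest, and vehicle rat V4 lay just above treated rat T2.

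Fabp7, a fatty acid binding protein best known from brain, read 11.74, 11.85, 11.49 and 11.62 in 300 mg/kg livers, against 12.04, 12.18, 12.24 and 12.18 in vehicle livers. It fell by 0.49 ± 0.09 (adjusted p = 0.011), with no overlap. Ccl5, a chemokine of T and natural killer cells, read 7.13, 7.20, 7.29 and 7.42 in 300 mg/kg livers, against 7.92, 7.84, 7.60 and 7.46 in vehicle livers, and fell by 0.44 (adjusted p = 0.045). Its groups were apart by little, with vehicle rat V4 next to treated rat T4. Cacna1d, a calcium channel subunit, fell by 0.65 and Stim2, a sensor of stored calcium, by 0.39. Glrx, glutaredoxin, fell by 0.31 and Sorl1, a sorting receptor, by 0.38. The other falls were Spin4 (-0.56), Ndrg4 (-0.56), Lsamp (-0.47), Marf1 (-0.40), Art1 (-0.38), Edem2 (-0.36), which helps dispose of misfolded proteins, and Adamts7 (-0.34).

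Markers of other cells were lower in part. Of 12 lymphocyte markers tested Ccl5 fell, 3 were above 0, and the median was -0.17. The mean level of all 15 was 4.98 to 5.19 in 300 mg/kg livers, against 5.13 to 5.34 in vehicle livers, and Cd3d, Gzmb and Klrd1 lay below the threshold in all 8. Of 13 stellate cell and fibroblast markers none was called, 1 was above 0, and the median was -0.27, with a mean level of 6.66 to 7.01 in 300 mg/kg livers, against 6.94 to 7.38 in vehicle livers. At 0.1 mg/kg against vehicle, 3 of the 12 and 0 of the 13 were above 0, with medians of -0.13 and -0.17. For 300 mg/kg against the 0.1, 1 and 10 mg/kg livers it was 4 and 3, with medians of -0.06 and -0.19. With MCHM at 300 mg/kg it was 5 and 7, with medians of -0.06 and 0.01. In bulk tissue fewer cells of a type and less RNA per cell cannot be told apart. The beta-actin difference was -1.22 ± 0.12 in 300 mg/kg livers and -1.25 ± 0.05 in vehicle livers (SD, n = 4 each; p = 0.714, two-sided exact permutation test over 70 splits). Their part in the results was not tested beyond a fit with the actin difference as a covariate, which called 61 genes.

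**Figure D3:**
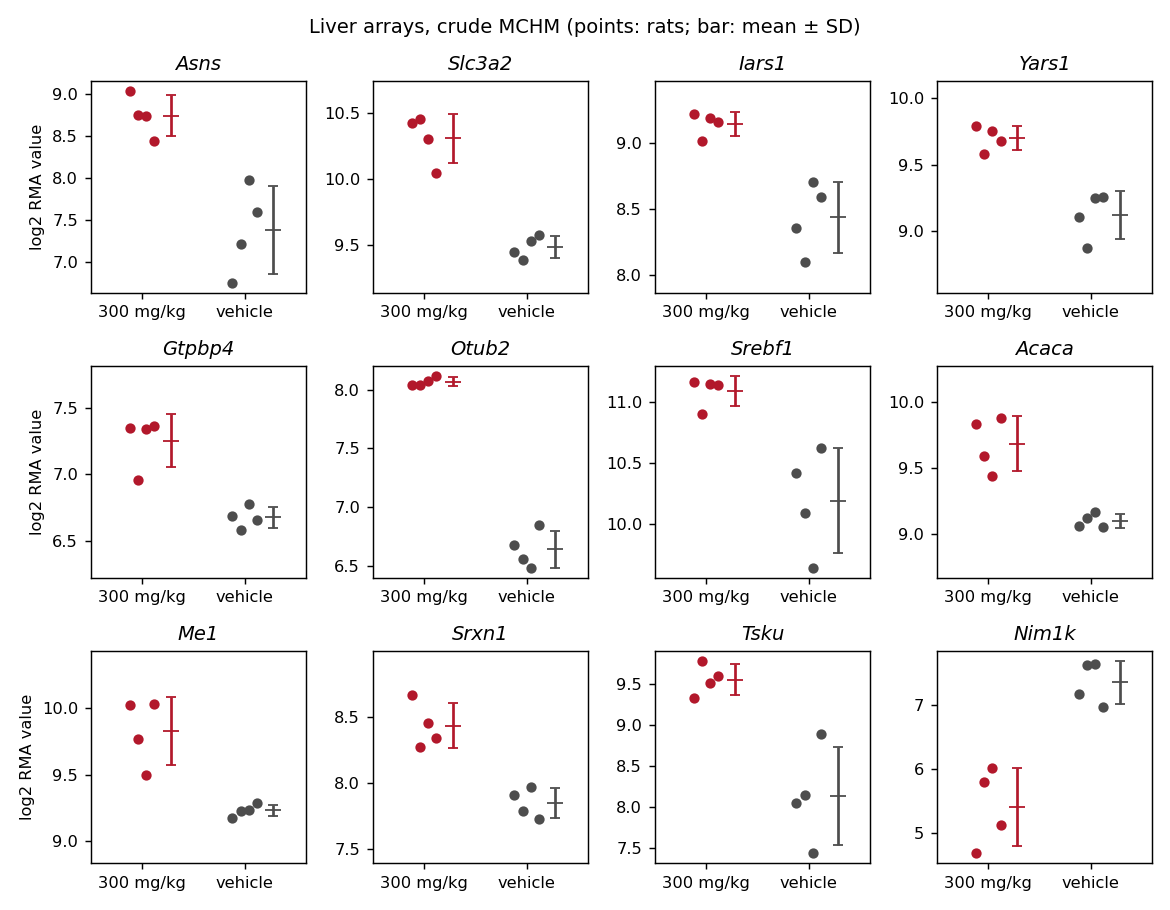
Log2 levels of 12 genes in single livers, with 300 mg/kg crude MCHM on the left and vehicle on the right of each panel; points are rats and bars are means ± SD. The groups do not overlap in any of the 12 panels, and the vehicle rats spread widely for Asns, Srebf1 and Tsku. All 12 genes were picked from those called on these same livers, so the lack of overlap is largely set by the choice.

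The neighbouring doses were read side by side, since all share the vehicle rats. No gene was called at 0.1, 1, 10 or 100 mg/kg, where limma gave 703, 546, 752 and 857 genes with an unadjusted p under 0.05, against 1603 at 300 mg/kg and 1524 at 500 mg/kg. At 500 mg/kg 59 genes rose (0.517%) and 18 fell (0.158%), together 0.675%. Dose patterns are given as values, and the patterns themselves were not tested. Direct tests of 300 mg/kg against the 0.1, 1 and 10 mg/kg livers and against 500 mg/kg follow below. Iars1 averaged 8.44 ± 0.27 log2 units in vehicle livers, then 8.90 ± 0.07, 8.43 ± 0.15, 8.71 ± 0.12, 8.83 ± 0.17, 9.14 ± 0.09 and 8.81 ± 0.20 over the 6 rising doses (SD; n = 3 at 0.1 mg/kg and 4 elsewhere). Gtpbp4 averaged 6.67 ± 0.08 in vehicle livers, then 7.27 ± 0.06, 6.79 ± 0.29, 7.08 ± 0.15, 7.05 ± 0.37, 7.25 ± 0.20 and 6.74 ± 0.10. Its mean at 0.1 mg/kg was thus as high as that at 300 mg/kg.

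Srebf1 averaged 10.19 ± 0.43 in vehicle livers, then 10.19 ± 0.19, 10.21 ± 0.34, 10.09 ± 0.21, 10.40 ± 0.38, 11.09 ± 0.13 and 10.51 ± 0.37 over the same doses. Acaca averaged 9.10 ± 0.05 in vehicle livers, then 9.03 ± 0.12, 9.05 ± 0.17, 9.04 ± 0.23, 9.30 ± 0.17, 9.68 ± 0.21 and 9.39 ± 0.23. Both stayed near the vehicle mean up to 10 mg/kg. As families, the cytosolic synthetases had a median difference from vehicle of 0.24, 0.01, 0.16, 0.20, 0.33 and 0.17 over the 6 doses, and large subunit assembly one of 0.20, 0.05, 0.19, 0.17, 0.29 and 0.14. Fatty acid synthesis had -0.08, 0.01, -0.01, 0.11, 0.32 and 0.19. These medians share 1 vehicle group, and whether the low vehicle level accounts for them was not tested.

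**Figure D4:**
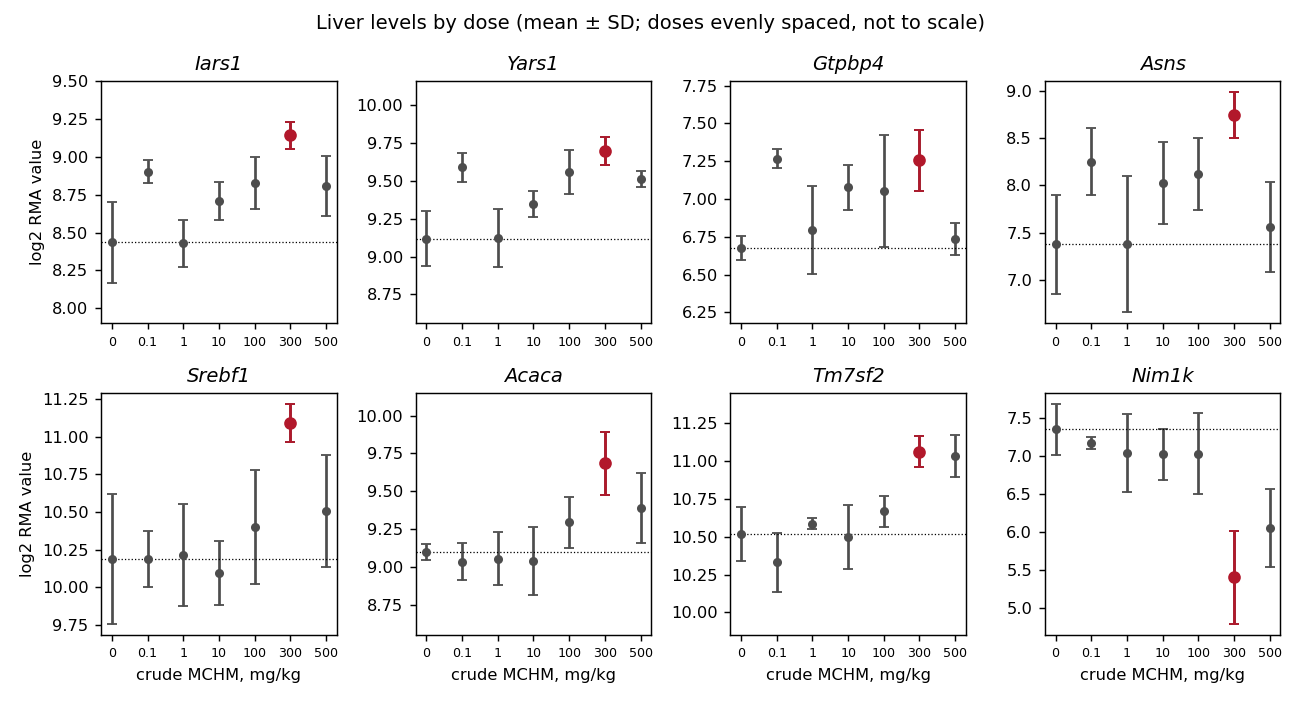
Mean ± SD of log2 levels of 8 genes in liver over vehicle (0) and 6 doses of crude MCHM, evenly spaced; the 300 mg/kg group is red and the dotted line is the vehicle mean. Iars1, Yars1, Gtpbp4 and Asns lie above the vehicle mean already at 0.1 mg/kg, while Srebf1, Acaca and Tm7sf2 stay near it up to 10 mg/kg, and Nim1k drops at the highest 2 doses.

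Set against the 0.1, 1 and 10 mg/kg livers in place of vehicle, a baseline chosen after the values had been seen, 50 genes were higher at 300 mg/kg (0.439%) and 26 lower (0.228%). Of the 115 genes called against vehicle 32 were among them, 25 risen and 7 fallen. All 9 fatty acid synthesis genes that passed were higher: Scd by 1.95, Thrsp by 1.37, Elovl6 by 1.24, Srebf1 by 0.93, Acly by 0.92, Fasn by 0.88, Acaca by 0.64, Me1 by 0.61 and Pklr by 0.60. Acly and Fasn encode the enzymes around Acaca in the pathway, Elovl6 and Scd lengthen and desaturate its product, Thrsp regulates it and Pklr ends glycolysis ahead of it. Tkfc (0.61), Tm7sf2 (0.59), Gpd1 (0.34) and Tkt (0.30), which acts in the pentose phosphate pathway, were higher too.

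Scd shows what the baseline does. It read 12.40, 11.85, 12.27 and 12.24 in 300 mg/kg livers, against 10.38, 11.69, 10.89 and 12.61 in vehicle livers (0.80 ± 0.45, adjusted p = 0.445). Its means at 0.1, 1 and 10 mg/kg were 10.04, 10.57 and 10.11, all below the vehicle mean of 11.39. Of the cytosolic synthetases 4 of 22 passed against the low doses (Iars1, Lars1, Yars1 and Mars1; median 0.25), and of both subunit assembly lists none of 42 and 43 passed, with medians of 0.16 for the large and 0.13 for the small subunit. The fall of Nim1k was 1.68 on this baseline (adjusted p = 0.00324).

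The 500 mg/kg livers were tested directly against the 300 mg/kg livers. Of 11402 genes 4 differed (0.0351%), all higher at 500 mg/kg, and 1215 had an unadjusted p under 0.05. Eci1, which acts in fatty acid oxidation, read 12.05, 11.86, 11.92 and 11.92 in 500 mg/kg livers, against 11.34, 11.33, 11.15 and 11.12 in 300 mg/kg livers (0.70, 95% interval 0.48 to 0.93, adjusted p = 0.00795). Acot2, a mitochondrial acyl-CoA thioesterase, differed by 0.59, Hyal3, a hyaluronidase, by 0.82 and Tmem14c, which acts in heme synthesis, by 0.38. None of the 4 was called at 300 mg/kg against vehicle, where they differed by 0.17, -0.24, -0.09 and 0.07. Asns was lower at 500 than at 300 mg/kg by -1.18 (interval -1.82 to -0.54) and Slc3a2 by -0.58 (-0.84 to -0.31), but neither passed the adjustment.

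Of the following 3 mRNAs, called against vehicle at 500 but not at 300 mg/kg, none passed in the direct test of 500 against 300 mg/kg (adjusted p = 0.216 for Cyp3a9, 0.238 for Serpina7 and 0.260 for A2m). Cyp3a9 differed from vehicle by 1.75 at 500 mg/kg (adjusted p = 0.00989) and by 0.71 at 300 mg/kg. Serpina7, which carries thyroid hormone in plasma, differed by -1.46 at 500 mg/kg (adjusted p = 0.00336) and by -0.74 at 300 mg/kg (adjusted p = 0.125). A2m, an acute phase protease inhibitor in rat, differed by -1.54 at 500 mg/kg (adjusted p = 0.00695) and by -0.74 at 300 mg/kg. The 100 genes that rose at 300 mg/kg had a median difference from vehicle of 0.21 at 500 mg/kg, where 8 of them were called higher, against 0.517% of all genes. At 100 mg/kg their median was 0.27, all 100 were above 0 and none was called. Both differences use the vehicle livers that the genes were chosen against, so a median above 0 is partly set by the choice.

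Crude MCHM was compared with MCHM at the matched dose of 300 mg/kg, each against its own vehicle livers. Of 11522 genes none differed in its response (0%), the smallest adjusted p was 0.710, and 542 had an unadjusted p under 0.05. This was the 1 pair of compounds compared at 300 mg/kg, and crude MCHM differs from MCHM by the further components of the mixture. MCHM at 300 mg/kg called 3 genes itself (0.0265%), 2 higher (0.0176%) and 1 lower (0.00882%). Tm7sf2 was among them, with a rise of 0.73 ± 0.12 (adjusted p = 0.016), beside 0.54 with crude MCHM, and the difference of both responses was -0.19 (95% interval -0.51 to 0.13). Slc6a9 gave 0.67 with crude MCHM and 0.69 with MCHM.

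The intervals leave room for differences of some size. That of crude minus MCHM included 0 for 84 of the 115 genes called with crude MCHM, and lay wholly within 1.5-fold for 49. The largest gap was in Tsku, 1.42 with crude MCHM and 0.26 with MCHM (difference 1.16, interval 0.14 to 2.17). Srebf1 gave 0.90 and 0.23 (0.67, 0.08 to 1.26) and Otub2 1.42 and 0.61 (0.81, 0.08 to 1.55). Since the genes were called with crude MCHM, its values tend to be the higher ones. Of 99 risen genes measured in the MCHM livers 95 were above 0, with a median of 0.16 beside -0.01 for all genes and 47.2% above 0, and 1 was called. All 22 cytosolic synthetases were above 0 with MCHM (median 0.18), as were 38 of 42 large subunit and 38 of 43 small subunit assembly factors, while 2 of 27 ribosomal proteins were. Nim1k gave -1.96 with crude MCHM and -1.07 with MCHM.

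The kidneys of the same dose showed no called gene (0%). Of 11216 genes tested in 3 kidneys at 300 mg/kg and 3 vehicle kidneys, none passed, 433 had an unadjusted p under 0.05, and without vehicle rat V1 the count was 29. Of the 99 liver risers measured there 52 were above 0, with a median of 0.00. The difference of the liver response minus the kidney response passed for 4 of 11892 genes (0.0336%), all higher in liver and all at an adjusted p of 0.04997. Srxn1 differed by 0.58 in liver and by -0.20 in kidney (difference 0.78, 95% interval 0.46 to 1.10). Yars1 differed by 0.58 in liver and by -0.08 in kidney, Sqstm1 by 0.42 in liver and by -0.19 in kidney, and Slc26a1, a sulfate transporter, by 0.36 in liver and by -0.30 in kidney. Leaving out 1 array in turn gave between 0 and 68 such genes, the most without the kidney of rat V1. With the rat as a block, since 2 treated and 3 vehicle rats gave both organs, the same 4 genes passed.

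**Figure D5:**
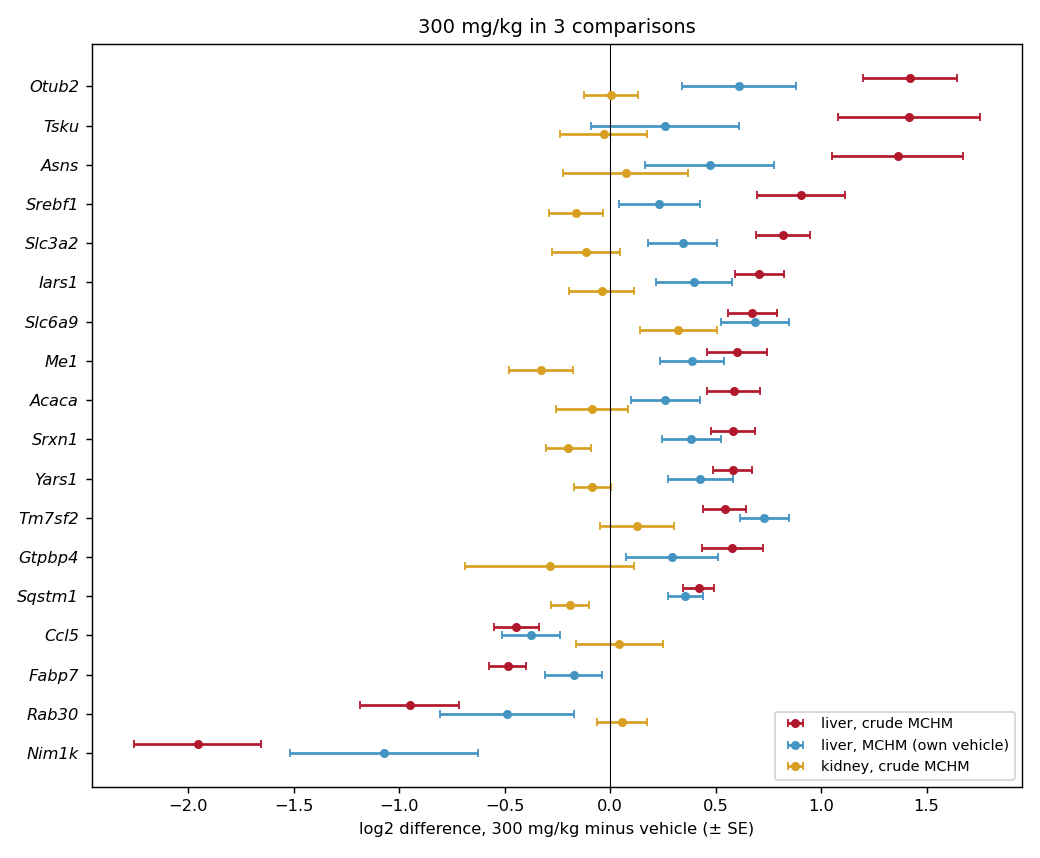
Log2 differences (± SE) of 18 genes at 300 mg/kg, for liver with crude MCHM (red), liver with MCHM against its own vehicle (blue) and kidney with crude MCHM (yellow, missing where the gene was not tested in kidney). Blue points lie on the same side of 0 as red ones in all 18 genes, while kidney points lie on both sides of 0.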

How the data were processed

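Liver and kidney RNA of rats was measured on expression arrays, 1 array per rat and organ, so replicates are separate rats. The log2 values were used as deposited; per the submitters' processing notes they were made with RMA (background correction, normalization between arrays and summary of probes), whose version is not given in the sources used here. Of 31099 probe sets 20832 had 1 gene symbol in the array annotation, 436 had several and 9831 were not listed there. These named 14218 genes, each read from the 1 probe set brightest on average in liver, except in the fit of kidneys alone. In that fit the probe set brightest on average in kidney was used. The kidney value of a gene can thus come from another probe set than its liver value. Differences of dim probe sets are compressed by RMA.

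Genes entered a test when 3 or more of its arrays exceeded the 40th percentile of all values, which was 4.69 for liver and 4.66 for kidney. limma 3.58.1 in R 4.3.3 was fitted to the 27 crude MCHM livers in 7 dose groups, to 56 livers for crude MCHM against MCHM, to 17 crude MCHM kidneys, and to 44 arrays for liver against kidney. All adjusted p-values are limma's with Benjamini-Hochberg adjustment over all genes tested in that comparison, and a gene was called at an adjusted p under 0.05. SE and 95% intervals come from the same fits. The steps were checked on simulated data. One kidney array was left out of all fits, since its median correlation with the other kidneys was 0.401, against at least 0.986 for each of the others. Liver and kidney arrays with one number come from the same rat, and the correlation within rats was 0.0569.

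The groups and gene lists were chosen with earlier results of these data known. Named genes were the 25 largest rises and falls among called genes with an assigned symbol, the called members of the earlier lists with further members up to 3 by p, and up to 3 genes called in each direction of each difference. The translation, ribosome, transporter and tubulin lists, the promoter motifs, the 0.1, 1 and 10 mg/kg baseline and the further lipogenic genes, as well as all other named genes, were picked after their values were seen. Alternatives dropped the filter, averaged the probe sets of a gene, or used a second quantile normalization, array weights, another variance prior, the actin difference as a covariate, other arrays in the fit, other baselines, the rat as a block and leaving out each array. Promoters came from RefSeq (GRCr8) and were matched by symbol for 9520 of the 11402 genes tested. Protein sequences were not used here.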

Additional observations from a re-analysis of the deposited data

Results flagged for a closer look

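Of 80 groups of 4 livers examined for 1 rat far from the other 3, 5 had such a rat, and chance gives about 1 in 20. Treated rat T2 was the low one for Srebf1 (10.90) and Gtpbp4 (6.96) and the high one for Rab30 (7.69), in each case nearer to vehicle than the other treated rats. Vehicle rat V1 stood apart for Smarcad1, a chromatin remodeler, at 5.58, and vehicle rat V4 for Polr1e at 6.54.

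The response of 4 genes differed between liver and kidney in a test of the difference itself: Srxn1 by 0.78, Yars1 by 0.66, Slc26a1 by 0.66 and Sqstm1 by 0.61 (liver minus kidney, log2). The 500 mg/kg livers differed from the 300 mg/kg livers in Hyal3 by 0.82, Eci1 by 0.70, Acot2 by 0.59 and Tmem14c by 0.38.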

How the results depend on the processing

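The count of 115 genes at 300 mg/kg was 55 without the filter, 61 after a second quantile normalization, 61 with the actin covariate, 3 with the 8 arrays alone, 43 in a fit of all 3 sets and 76 against the 0.1, 1 and 10 mg/kg livers, a baseline chosen after seeing the data. It stayed within 1.5 times of 115 under the other 5 settings, and was 3 to 83 with 1 rat left out, lowest without rat V2. A similar count did not always mean the same genes. Of the 115 genes, 50 were also called against vehicle and the low doses, and 33 against all vehicle livers. With the mean of probe sets 90 of them were called, and with array weights all 115. Otub2 was the 1 gene that passed under all 11 settings other than the fits with 1 rat left out. One of these settings replaced the vehicle livers by the 0.1, 1 and 10 mg/kg livers. The 4 genes of 500 minus 300 mg/kg became 2 with the mean of probe sets, 21 after quantile normalization, and 37 with array weights and likewise with the other prior; with 1 rat left out there were 0 to 13, with 0 without rat T4 and 13 without 1 of the 500 mg/kg rats. Crude minus MCHM gave 0 under every setting, and 0 to 1 with 1 rat left out, the 1 without rat T1. Kidney gave 0, and 0 to 29 with 1 array left out. Liver minus kidney gave 0 without the filter, 0 with the mean of probe sets, 1 after quantile normalization, 17 with array weights and 0 to 68 with 1 array left out. With the rat number as a replicate block it gave the same 4 genes (smallest adjusted p 0.0361), and no other comparison has pairs. Genes near 0 at 300 mg/kg changed sign: Hyal3 (-0.09) was 0.0212 with the mean of probe sets and -0.162 to 0.00501 with 1 rat left out, highest without rat V2; Eci1 (0.17) was -0.0384 with the mean of probe sets, -0.0578 against vehicle and the 3 low doses, -0.0700 against all vehicle livers and -0.13 against the low doses; Tmem14c (0.07) was -0.0783 against vehicle and the low doses and -0.13 against the low doses. The actin difference ran between -0.0119 and 0.0707 with 1 rat left out. The causes were not tested. Dim probe sets near 4.69, such as Nim1k in treated livers, limit how large a fall can be measured.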

Other observations

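Several gene groups leaned one way against vehicle without a called member at 300 mg/kg. Of 15 circadian clock genes 1 was above 0 and the median was -0.14. Of 12 genes of p53 and DNA damage 11 were above 0 with a median of 0.17. Against the 0.1, 1 and 10 mg/kg livers, 7 of these 15 and 6 of these 12 were above 0, with medians of -0.01 and -0.0006. At 0.1 mg/kg against vehicle, 5 of the 15 and 10 of the 12 were above 0, with medians of -0.13 and 0.12. Of 21 plasma carriers and apolipoproteins 4 were above 0, with a median of -0.02 and a range from -0.74 to 0.05. Their mean level was 13.12 to 13.19 log2 units in 300 mg/kg livers, against 13.22 to 13.30 in vehicle livers. These means did not overlap, but of the 21 single genes 3 did not, all lower, where 9.01% of all genes tested showed no overlap in either direction. Of 14 heat shock proteins 12 were above 0, with a median of 0.08. Against the 0.1, 1 and 10 mg/kg livers 2 of the 21 plasma carriers and apolipoproteins and 9 of the 14 heat shock proteins were above 0.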
